A study of Arabidopsis thaliana with 8 samples.

Results

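FACT (AT5G63560) encodes the fatty alcohol caffeoyl-CoA caffeoyl transferase of Arabidopsis roots, an enzyme of the BAHD acyltransferase family, and is unrelated to the histone chaperone complex of the same name. It was followed through its 1 probe set, out of 13286 genes that a probe set measures alone, per the platform annotation. The gene was chosen by its measured fall in protoplasts against roots, as a marker of lost root differentiation, so its protoplast and root values are given as a description with no test. Transcript levels were measured on 8 single-channel Affymetrix arrays, 2 in each of 4 groups: protoplasts of a hira background, wild-type (WT) protoplasts, hira roots and WT roots. Protoplasts are cells freed from their walls by enzymes, and the series asks how hira acts on the dedifferentiation that follows. HIRA, a histone chaperone, places the histone variant H3.3 into chromatin. The labels do not give the hira allele, the accession or the age of the plants, and all groups carry the same growth conditions, vertical MS plates after cold treatment of the seeds. The labels list enzyme digestion for the root samples too, so whether roots met the enzymes is not settled by them.

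Suberin is a polyester of fatty and aromatic units laid down in the walls of mature root endodermis and of the root periderm, where it limits the passage of water and solutes. Waxes are embedded in it. Among them are alkyl hydroxycinnamates, esters of fatty alcohols with aromatic acids, and FACT makes the caffeate esters from fatty alcohols supplied by fatty acyl reductases and from caffeoyl-CoA of the phenylpropanoid pathway. Suberin is a product of differentiated root cells, which is why its genes serve as markers of that state.

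All values are log2 values centred on the median of each probe set over the 8 arrays, so they show differences between arrays and not how strongly a gene is expressed. Neither presence nor absence of root, endodermis or other cell type markers can therefore be read from them. Replicates correlated across all 22746 tested probe sets at r = 0.878 for hira protoplasts, 0.738 for WT protoplasts, 0.808 for hira roots and 0.574 for WT roots, where probe sets are not independent. The gap between the 5′ and 3′ probe sets of the GAPDH control, a measure of RNA quality, averaged -0.09 ± 0.0086 for hira protoplasts, 0.62 ± 0.19 for WT protoplasts, 0.04 ± 0.12 for hira roots and -2.22 ± 0.04 for WT roots (SD, n = 2 each). The control probe sets are centred as well, so these gaps compare arrays with each other and do not show whether RNA was intact. HIRA itself has no single-gene probe set in this annotation, so the genotype labels were not checked by its transcript. No label states that replicates are separate plants or cultures, and the p-values may therefore rest on technical spread alone.

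FACT stood low on all 4 protoplast arrays and high on all 4 root arrays. In hira protoplasts both arrays read -3.95. In WT protoplasts they read -3.69 and -3.04. Both hira protoplast arrays thus lay below both WT protoplast arrays. Hira roots gave 3.24 and 3.04. WT roots gave 4.22 and 4.24. No group overlapped another, and the means ran upward from hira protoplasts (-3.95 ± 0.00086) and WT protoplasts (-3.36 ± 0.46) to hira roots (3.14 ± 0.15) and WT roots (4.23 ± 0.012), as mean ± SD with n = 2 each. The whole range over the 8 arrays was 8.19 log2 units, and 0.299% of probe sets had a range at least as wide.

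**Figure D1:**
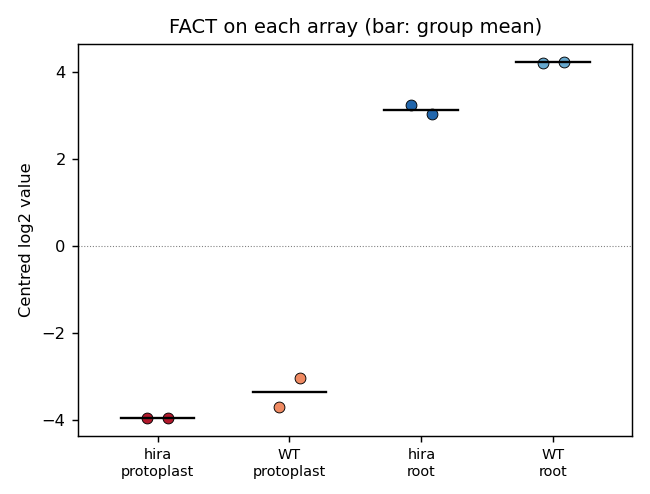
Centred log2 values of FACT (vertical axis) on the 2 arrays of each group (points), with the group mean as a bar. The 4 protoplast arrays lie between -3.95 and -3.04 and the 4 root arrays between 3.04 and 4.24.

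The drop of FACT with protoplast formation was among the deepest on the array in both genotypes. In hira protoplasts it was -7.09 against hira roots (log2, SE 0.22), a ratio of 136-fold, and the 4 differences between single arrays ran from -7.19 to -6.99. In WT protoplasts it was -7.60 against WT roots (SE 0.22), a ratio of 193-fold, with single-array differences from -7.93 to -7.26. Counted from the most negative change, FACT ranked 7 of 22746 probe sets in hira and 5 of 22746 in WT. Among the 13436 single-gene probe sets it ranked 5 in hira and 4 in WT. Among the 1551 of these whose gene has a symbol it ranked 2 in hira, behind the defensin gene PDF2.5 at -7.12. In WT it ranked 1 there, ahead of the plantacyanin gene ARPN at -6.66. In bulk RNA, fewer cells of a type and less RNA per cell cannot be told apart.

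The spread behind these values was uneven. The 2 hira protoplast arrays differed by only 0.0012 for FACT, and 2.27% of probe sets had a gap that small or smaller in that group, where the median gap was 0.09. The 2 WT protoplast arrays differed by 0.65, more than 0.16, the median gap of that group. Centring removes the information on whether the hira protoplast value sits at background. If it does, the fall in hira is a lower bound and its small SD is no measure of precision. The fall in WT was -7.92 without the second WT protoplast array, which read higher, and -7.27 without the first.

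The genotypes were then compared, a contrast for which FACT was not chosen, although it shares its arrays with the contrast that singled the gene out. FACT was lower in hira roots than in WT roots by a log2 difference of -1.09 (SE 0.22, 95% interval -1.67 to -0.51), which is a ratio of 2.13-fold. Both hira arrays lay below both WT arrays. The share of all probe sets that separate in this way is not given, so this order is a description only. The difference missed the threshold by a narrow margin, with an adjusted p of 0.0521 (limma), in a comparison where 9.19% of all probe sets were called. Leaving out either of the WT protoplast arrays could change only the SE and p, since only root arrays enter the difference. Its adjusted p was 0.0944 (limma) with the root arrays alone, a setting that called 0 of the probe sets. The GAPDH control gap differed between the same groups, at 0.04 in hira roots and -2.22 in WT roots, and its part in the difference was not tested.

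In protoplasts the difference between genotypes was smaller and also negative. FACT differed by -0.58 (log2, SE 0.22, 95% interval -1.17 to -0.0022) between hira and WT protoplasts, with an adjusted p of 0.162 (limma), where 8.29% of probe sets were called. Both hira arrays again lay below both WT arrays, as a description only. The value rested on the WT protoplast arrays: it was -0.91 with an adjusted p of 0.0428 without the first and -0.26 without the second. The GAPDH control gap was -0.09 in hira protoplasts and 0.62 in WT protoplasts, and its part was not tested.

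**Figure D2:**
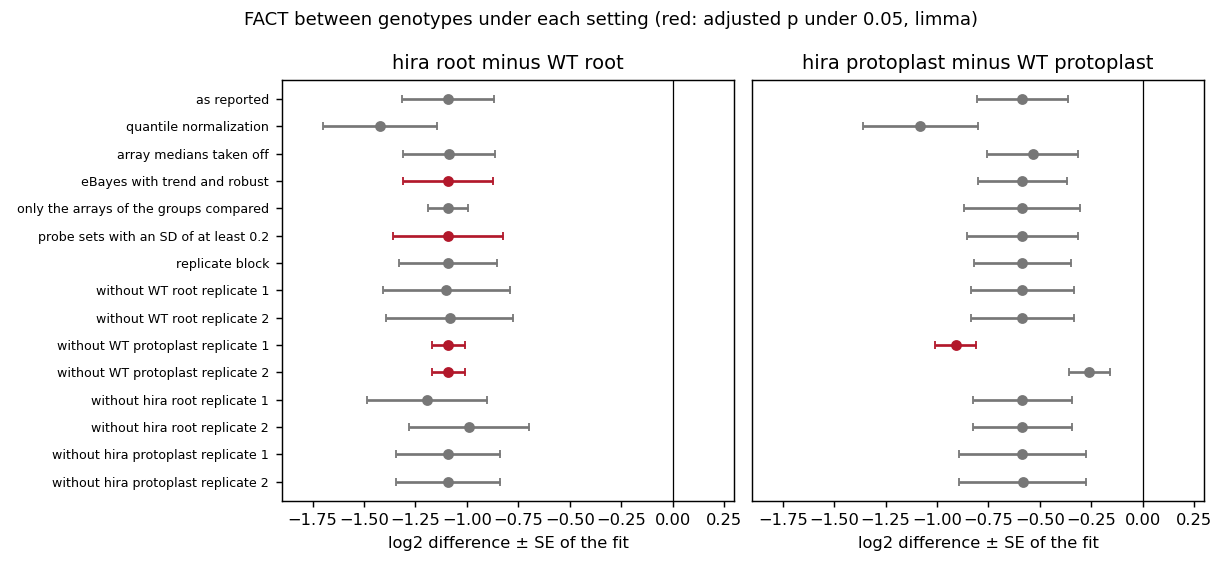
FACT difference between genotypes (horizontal axis, log2, with the SE of the fit as bars) for each way of processing the data (rows), in roots on the left and in protoplasts on the right, with adjusted p under 0.05 in red. All 15 values are below 0 in each panel, from -1.42 to -0.99 in roots and from -1.08 to -0.26 in protoplasts. Rows whose setting leaves the compared values unchanged repeat the value as reported, so the shared sign was partly fixed in advance.

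The drop itself did not pass as different between genotypes. The hira response minus the WT response of FACT was 0.51 (log2, SE 0.32), with an adjusted p of 0.348 (limma), in a comparison where 4.87% of probe sets were called. The 95% interval ran from -0.32 to 1.33, and the result does not show that the responses were alike. If the hira protoplast value sits at background, neither this interval nor the difference of -0.58 between protoplasts bounds how much lower FACT is in hira protoplasts.

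The remaining suberin genes were sparsely covered. Of 34 further loci on the suberin lists 4 had a single-gene probe set, AT1G74460, AT2G23540, AT2G48130 and AT5G37690, and the annotation tables give none of them a symbol or a function. All 4 come from 1 of the suberin lists, that of transport and assembly, which has 9 loci. The annotation used here pairs no single probe set with the other acyltransferase genes ASFT and DCF, with the 14 loci of wax and polyester synthesis, among them the fatty acyl reductase genes FAR1, FAR4 and FAR5, or with the 9 regulators, and these were not analysed here. It lists no gene for 8730 of the probe sets tested.

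In hira protoplasts all 4 of these loci fell against hira roots by limma, in a comparison where 12.2% of probe sets were called lower. Their median change was -6.22, against -0.02 over all probe sets. In WT protoplasts 1 of the 4 fell against WT roots, where 13.9% of probe sets were called lower, and the median change was -3.25 against 0.03 over all probe sets. The RNA controls differed most between the WT groups: the 5′ to 3′ gap of the actin control was 0.26 ± 0.06 in hira protoplasts, against -0.25 ± 0.13 in hira roots, and 1.52 ± 0.32 in WT protoplasts, against -1.81 ± 0.47 in WT roots (SD, n = 2 each), and the GAPDH gaps given above ran the same way in WT. Their part in the counts was not tested. The count in hira was 1 without hira root replicate 2, without hira protoplast replicate 1 or without hira protoplast replicate 2, and 2 without hira root replicate 1 or with either of the WT root arrays left out. In WT it was 3 without WT protoplast replicate 2 and 2 without WT protoplast replicate 1.

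Of the 4, AT5G37690 had the profile nearest to that of FACT. It read -4.03 on both hira protoplast arrays, against 2.67 and 2.75 in hira roots. It read -4.0 and -2.43 in WT protoplasts, against 3.07 and 2.43 in WT roots. Protoplasts lay far below roots in both genotypes, and the near-equal pair in hira protoplasts seen for FACT appeared here too. The fall was -6.74 in hira (SE 0.55, adjusted p = 0.00323) and -5.96 in WT (SE 0.55, adjusted p = 0.00379, limma). Over the 8 arrays its r with FACT was 0.990, and by root mean square difference between the profiles it ranked 2 of 13435 probe sets.

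The other 3 loci showed a wide gap between the WT protoplast arrays. AT2G23540 read -5.94 and -5.56 in hira protoplasts, against 1.87 and 2.29 in hira roots. In WT protoplasts it read -6.19 and -0.88, against 0.88 and 0.99 in WT roots. On the first WT protoplast array the locus was as low as in hira protoplasts, and on the second it was far closer to roots. AT1G74460 read -2.82 and -2.88 in hira protoplasts, against 1.39 and 2.27 in hira roots. Its WT protoplast values were -3.17 and -0.08, against 0.75 and 0.08 in WT roots. AT2G48130 gave -4.23 and -3.34 in hira protoplasts, against 1.53 and 2.33 in hira roots, and it gave -1.94 and 0.51 in WT protoplasts, against 0.13 and -0.13 in WT roots, so that its WT groups overlapped. The falls in hira were -7.83, -4.68 and -5.71 for AT2G23540, AT1G74460 and AT2G48130, with adjusted p of 0.0353, 0.0379 and 0.0140 (limma). In WT the changes were -4.47, -2.04 and -0.71, with adjusted p of 0.131, 0.223 and 0.563 (limma).

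**Figure D3:**
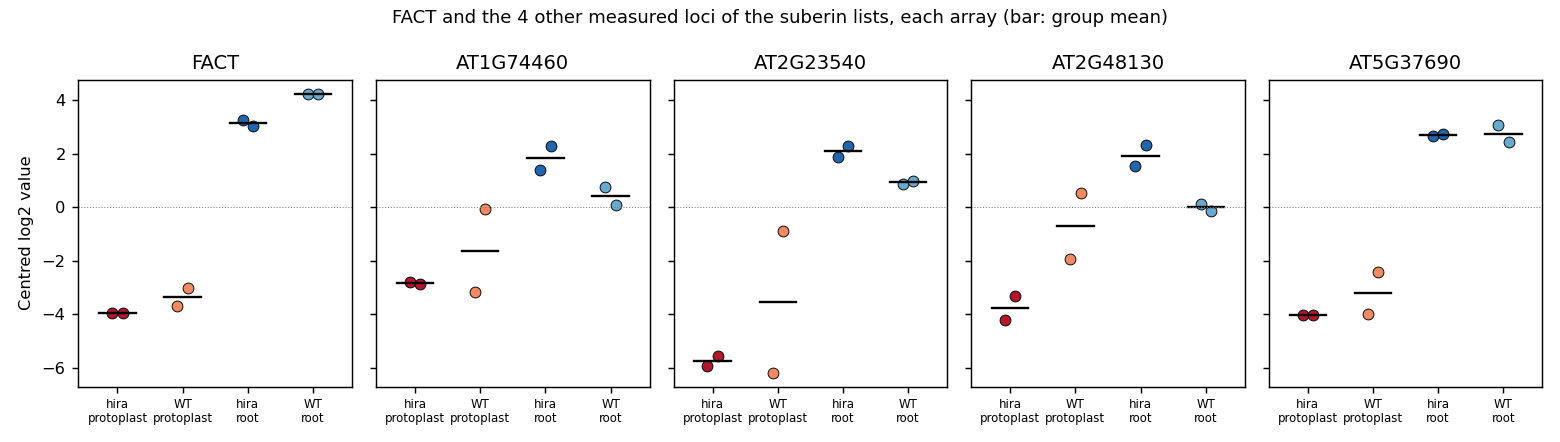
Centred log2 values (vertical axis) of FACT and the 4 other measured loci of the suberin lists on the 2 arrays of each group (points), with group means as bars. For all 5 the second WT protoplast array is above the first, by 0.65 for FACT and by 5.31 for AT2G23540.

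The second WT protoplast array read higher than the first for FACT and for all 4 suberin loci. The gap was 0.65 for FACT, 1.58 for AT5G37690, 2.45 for AT2G48130, 3.09 for AT1G74460 and 5.31 for AT2G23540. Over all single-gene probe sets other than FACT, 57.7% were higher on the second array than on the first. FACT therefore had the smallest gap of the 5.

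Neither FACT nor any of the 4 loci was called in hira against WT roots, a comparison that called 9.19% of all probe sets. The changes of the 4 were 1.41 for AT1G74460, 1.15 for AT2G23540, 1.93 for AT2G48130 and -0.04 for AT5G37690, with adjusted p from 0.271 to 1 and an unadjusted p under 0.05 for 0 of them (limma). Their median was 1.28, against -0.0039 over all probe sets, while FACT was at -1.09, and a difference between FACT and these loci was not tested. In hira against WT protoplasts, where 8.29% of probe sets were called, none of the 4 was called, with changes from -3.07 for AT2G48130 to -0.81 for AT5G37690 and adjusted p from 0.101 to 0.462, and 1 of them had an unadjusted p under 0.05 (limma). There the count was 2 without WT protoplast replicate 1. The difference between the responses was called by limma for none of the 4, against 4.87% of all probe sets. 1 of the 4 had an unadjusted p under 0.05, with values from -4.997 for AT2G48130 to -0.77 for AT5G37690.

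FACT belongs to the BAHD family, whose members join acyl-CoA donors to alcohols or amines. Of 20 other BAHD loci on the list 9 were measured. In hira protoplasts against hira roots limma called 0 of 9, with 0 at an unadjusted p under 0.05, where 24.2% of probe sets were called in either direction. In WT protoplasts against WT roots 1 was higher and 1 lower, where 25.6% were called. The lower one was BAT1, an acyltransferase acting on brassinosteroids, which read -0.51 and -0.98 in hira protoplasts, against 1.67 and 0.51 in hira roots, and -3.18 and -5.0 in WT protoplasts, against 1.29 and 0.55 in WT roots. Its change in hira was -1.83 (SE 0.76, adjusted p = 0.161), and its fall in WT was -5.01 (SE 0.76, adjusted p = 0.0121, limma). The difference between these responses, 3.18, did not pass (adjusted p = 0.147, limma). The call in WT was lost with the WT arrays alone (adjusted p = 0.0734) and without WT root replicate 1 (adjusted p = 0.0522, limma). AT2G25150 was higher by 2.27 in WT protoplasts (adjusted p = 0.0461), a call that was lost under 10 of 14 alternatives, with an adjusted p of up to 0.167 (limma).

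The other 7 measured BAHD members of the list moved little, and members outside the list were not identified. Centred values do not show whether a gene was detected, and no low-value filter was used. A small range can therefore also be that of an undetected gene. HCT, which moves hydroxycinnamoyl groups on to shikimate in the pathway that leads to caffeoyl-CoA, read from -0.41 to 0.63 over all arrays, with changes of 0.30 in hira and -0.26 in WT protoplasts, and it is also the single measured gene of 18 on the phenylpropanoid list. The spermidine acyltransferase genes SHT and SDT, the hexenol acetyltransferase gene CHAT and the anthocyanin malonyltransferase gene AT5MAT had ranges of 0.07, 0.11, 0.03 and 0.06 over the 8 arrays. AT4G13840 (CER26) and AT3G23840 (CER26-LIKE) had ranges of 0.21 and 0.18. FACT had a range of 8.19. WSD1, a wax synthase of the shoot cuticle and the single measured gene of 25 on the cuticle list, had a range of 0.12.

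Genes listed for the endodermis and for other root tissues did not share one course. The annotation gives AT1G62500 and AT1G61590, both on the endodermis list, no symbol or function, so their tissue rests on the list alone. Of 15 loci on the Casparian strip and endodermis list 3 were measured. Limma called 2 lower in hira protoplasts, where 12.2% of probe sets were called lower. It called 1 higher in WT protoplasts, where 25.6% were called in either direction and 13.9% were called lower. GSO1, a receptor kinase needed for an intact Casparian strip, read -1.29 and -1.26 in hira protoplasts, against 1.54 and 2.02 in hira roots, and -1.0 and 0.17 in WT protoplasts, against 0.90 and -0.17 in WT roots. It fell by 3.06 in hira (SE 0.54, adjusted p = 0.0192) and changed by -0.78 in WT (adjusted p = 0.326, limma). The fall in hira was lost without any 1 of the hira arrays, with an adjusted p from 0.0576 to 0.0996. AT1G62500 fell by 0.27 in hira (adjusted p = 0.0064) over a range of 0.28, and AT1G61590 was higher by 2.36 in WT protoplasts (adjusted p = 0.0490, limma), a call lost under 11 of 14 alternatives. The stele gene LHW changed by -0.99 in hira protoplasts (adjusted p = 0.156) and fell by 1.84 in WT protoplasts (adjusted p = 0.0335, limma), and its call in WT was lost under 8 of 14 alternatives. The root hair gene EXPA7 changed by -2.85 in hira and 1.86 in WT protoplasts (adjusted p = 0.0677 and 0.165, limma). RCA, a gene of green tissue, changed by -0.66 in hira and 0.12 in WT protoplasts (adjusted p = 0.766 and 0.946, limma). Its hira root arrays read -3.01 and 0.62, so the change in hira averages over a wide gap. No root cap locus of 4 was measured.

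Some genes had a profile over the 8 arrays very close to that of FACT. Pearson's r with FACT was at least 0.95 for 149 of 13435 single-gene probe sets, or 1.11%, of which 33 have a symbol. All points share the same 8 arrays, and r over them mostly reflects the gap between protoplasts and roots. Among genes with a symbol the highest r were those of ChiC, a chitinase gene, at 0.998, CHR17, an ISWI-type chromatin remodeller gene, at 0.995, ATLP-1, a thaumatin-like protein gene, at 0.991, the actin-binding NET1A at 0.990, the phragmoplast motor gene KINESIN-12B at 0.988, the mitotic chromosome protein gene 3xHMG-box2 at 0.987, PDF2.5 at 0.984 and the calmodulin-binding IQD26 at 0.983.

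A high r does not mean an equal change. CHR17 changed by only -0.98 in hira and -1.12 in WT protoplasts. By the root mean square difference between profiles, which also takes in the size, the nearest genes with a symbol were PDF2.5 at 0.70, ATLP-1 at 0.79, ChiC at 0.98, 3xHMG-box2 at 1.16, ARPN at 1.29, the signalling peptide gene RALFL34 at 1.36, HVA22C at 1.63 and the endoglucanase gene GH9B8 at 1.67 log2 units. The lists share 4 genes. AT5G37690, with 0.69, was nearer to FACT than any of them.

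**Figure D4:**
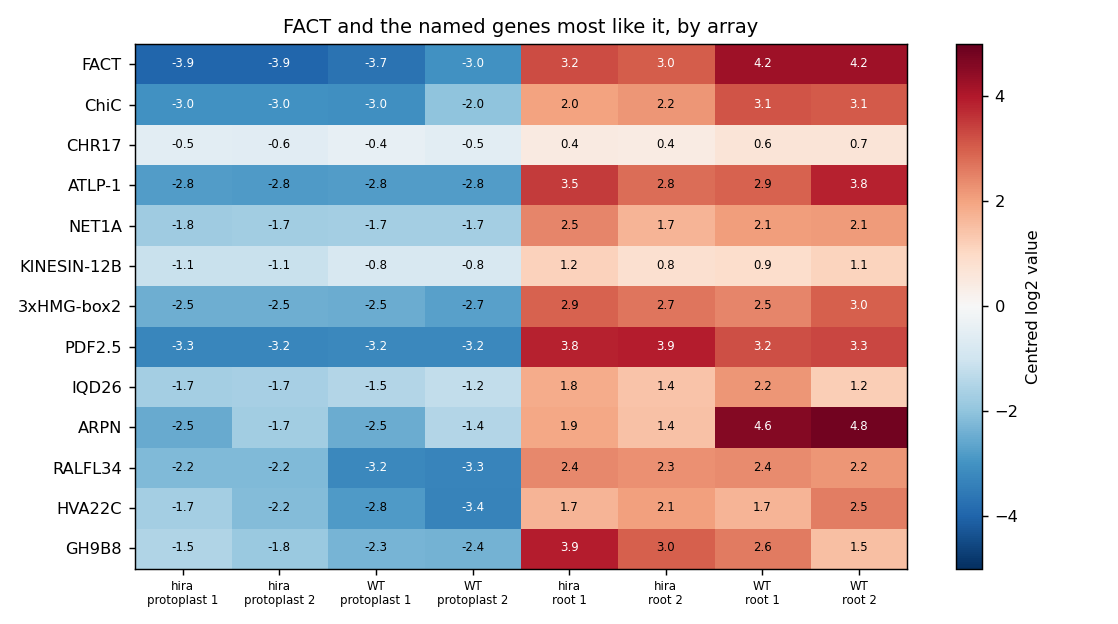
Centred log2 values (colour and printed number) of FACT and the 12 named genes with the highest r or the smallest root mean square difference (rows) on the 8 arrays (columns). All 13 rows are negative on the 4 protoplast arrays and positive on the 4 root arrays, and ARPN has the largest gap between hira and WT roots.

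Part of these probe sets also shared the order of the 4 groups. FACT rose in the order hira protoplasts, WT protoplasts, hira roots and WT roots. Of the 149 probe sets with r of at least 0.95, 45 or 30.2% had their group means in that order. Over all single-gene probe sets other than FACT the share was 2.98%. The choice by r already favours this order, so the share is a description only. With no overlap between any of the groups, as for FACT, the order held for 9 of the 149, CHR17 among them. Over all single-gene probe sets other than FACT it held without overlap for 60, or 0.447%. ChiC resembled FACT in each group. It read -3.03 and -3.04 in hira protoplasts, against 2.03 and 2.22 in hira roots. It read -3.05 and -2.03 in WT protoplasts, against 3.15 and 3.06 in WT roots. Like FACT it was higher on the second WT protoplast array and lower in hira roots than in WT roots, at -0.98 for ChiC and -1.09 for FACT. PDF2.5 had the opposite order in roots, with 3.83 and 3.91 in hira and 3.23 and 3.33 in WT. Of the 149 probe sets 79 had a lower mean in hira roots than in WT roots. Limma called 6 of the 149 lower and 6 higher there, in a comparison that called 9.19% of all probe sets.

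**Figure D5:**
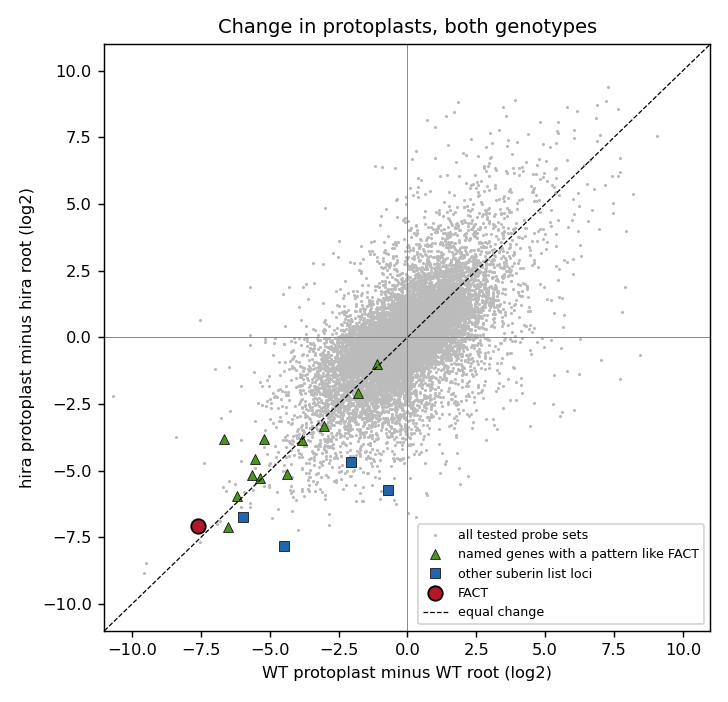
Change in protoplasts against roots in WT (horizontal axis, log2) and in hira (vertical axis, log2) for all tested probe sets (grey), the named genes with a pattern like FACT (triangles), the other suberin list loci (squares) and FACT (circle), with the line of equal change dashed. FACT lies near that line at -7.09 in hira and -7.60 in WT, while AT2G48130 lies far from it at -5.71 in hira and -0.71 in WT.

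Genes beside FACT on the chromosome did not fall as a block. Of the 3 nearest measured loci on each side in locus order, AT5G63630 was lower in protoplasts of both genotypes, by -1.48 in hira (adjusted p = 0.0207) and -2.08 in WT (adjusted p = 0.00803, limma), calls that were lost under 4 and 1 of 14 alternatives. AT5G63490 and AT5G63520 rose in hira protoplasts by 1.37 and 1.79 (adjusted p = 0.00454 and 0.00202), and AT5G63620 rose in WT protoplasts by 2.32 (adjusted p = 0.00772, limma). In roots AT5G63490 and AT5G63520 were lower in hira than in WT by a log2 difference of -1.11 (adjusted p = 0.0183) and -0.92 (adjusted p = 0.0218, limma), 2 of the 6 neighbours, in the comparison where 9.19% of probe sets were called. Each of these root calls was lost under 4 of 14 alternatives. AT5G63480 and GSA1, a gene of tetrapyrrole synthesis, were called in neither genotype's protoplasts against roots. PDF2.5, one of the genes most like FACT, is the fifth measured locus after it. Over the 8 arrays AT5G63630 had an r of 0.962 with FACT, where 1.11% of single-gene probe sets had at least 0.95. The r of the other neighbours ran from -0.91 for AT5G63620 to 0.45 for GSA1.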

How the data were processed

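The authors deposited values for 22810 probe sets on 8 arrays. GCRMA made them, per the submitters' processing notes, without a version or log base, and they are read here as log2 values. In the deposited table the median of each probe set over the 8 arrays is 0 within rounding, so values are centred per probe set and give no level. The number of arrays limits the precision. After 64 control probe sets were set aside, 22746 were tested with no low-value filter. The platform annotation gave 1 gene for 13513 probe sets, and 13436 of these were named through a RefSeq gene table of TAIR10.1. No coordinates are given, since no genome build is named.

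The 4 group means were estimated from all 8 arrays by limma 3.58.1 in R 4.3.3 (4 residual and 0.742 prior degrees of freedom). Tests were two-sided with Benjamini-Hochberg adjustment over all tested probe sets, called at 0.05, and the fit was tested on simulated data. Intervals are moderated 95% intervals. Gene, lists, comparisons and likeness measures were chosen with earlier results of these data known. Named were all measured suberin loci, up to 2 called members per direction of the other lists in WT, the 8 genes with a symbol that were most like FACT by each measure, and the 3 nearest measured loci on each side. Other list members named above were added with their values seen. A planned list of acyltransferases by description was not formed, because the tables hold no descriptions.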

Additional observations from a re-analysis of the deposited data

Results flagged for a closer look

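For 2 loci named above the change in protoplasts differed between hira and WT by limma's test of the difference. AT5G63520, a neighbour of FACT, had a hira response minus WT response of 1.52 (log2, SE 0.17, adjusted p = 0.0263, limma), from 1.79 in hira and 0.28 in WT. It was also lower in hira roots than in WT roots, at -0.92 (adjusted p = 0.0218, limma). The call was lost under 4 of 13 alternatives, with an adjusted p of up to 0.109. AT1G62500 of the endodermis list had a difference of -0.27 (SE 0.04, adjusted p = 0.0453, limma), from -0.27 in hira and 0.0026 in WT, over a range of 0.28 on the 8 arrays. The call was lost under 8 of 12 alternatives, with an adjusted p of up to 0.162. AT1G62500 was also higher in hira roots than in WT roots, at 0.16 (adjusted p = 0.0453, limma), a call lost under 11 of 13 alternatives. FACT itself did not pass the test of the difference.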

How the results depend on the processing

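A genotype difference within roots or protoplasts can move only with normalization or when an array of the compared groups is left out. FACT was lower in hira than in WT under all 14 alternatives in roots and in protoplasts, a sign thus partly fixed in advance. In roots it passed with trend and robust moderation (-1.09, adjusted p = 0.0490), with an SD filter of 0.2 (-1.09, adjusted p = 0.0384) and with either of the WT protoplast arrays left out, and leaving out 1 array gave -1.19 to -0.99. In protoplasts leaving out 1 array gave -0.91 to -0.26. The fall of FACT was -7.19 to -6.99 in hira and -7.92 to -7.27 in WT with 1 array left out, and the difference between the responses was 0.18 to 0.83 and was called under none of 13 alternatives (adjusted p 0.0704 to 0.669). The 4 suberin loci gave 1 to 4 calls in hira and 1 to 3 in WT with 1 array left out, 2 in WT with the SD filter, and in hira against WT protoplasts 1 after quantile normalization and 0 to 2 with 1 array left out. The 149 probe sets with r of at least 0.95 became 494 over the 4 group means, 76 with Spearman's rho, 417 at r of at least 0.9 and 132 to 289 with 1 array left out. The causes of these moves were not tested. The replicate block is balanced over the groups and so cannot move the values of FACT. It left them at -1.09 in roots (adjusted p = 0.0972), -0.58 in protoplasts (adjusted p = 0.220) and 0.51 for the difference (adjusted p = 0.401, limma). It called 1030 probe sets in roots, 789 in protoplasts and 302 for the difference, against 2090, 1885 and 1108 without it. Replicate gaps of different groups correlated at r of -0.096 to 0.048 across probe sets. No pairing by replicate number was seen in this way, but weak correlations over all probe sets cannot exclude one. The recomputation for other named genes was added after the data were seen, and of their 21 calls 5 held under every alternative and none reversed.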
